A study of Mus musculus with 4 samples.

Results

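The Dlx homeobox genes of the mouse, Dlx1, Dlx2, Dlx3, Dlx4, Dlx5 and Dlx6, were followed on 4 Affymetrix GeneChip mouse genome arrays. The members were taken by name, as all probe sets annotated to exactly 1 of these symbols. This gave 8 probe sets for the 6 genes, out of 34945 probe sets with 1 symbol for 18193 genes. The arrays held 2 wild-type and 2 Hand2NC samples, 1 of each genotype from E11.5 whole bodies and 1 of each from E12.5 heads. The labels give whole body for the younger samples while a legend of the study speaks of heads, and the labels were followed here. Hand2NC embryos carried the Hand2 CAT/+ and Wnt1-Cre alleles, in which Cre recombinase from the neural crest driver Wnt1-Cre removes a floxed CAT cassette and switches on a Hand2 transgene in the neural crest lineage, and wild-type littermates served as controls. All embryos were of a mixed C57BL/6J and ICR background. RNA was pooled before hybridisation, so that each condition was 1 pool on 1 array. No difference has a replicate check, no p-value was computed, and every difference describes these arrays. Each array enters 1 genotype and 1 stage comparison, so that values of these kinds share arrays. Stage and tissue were changed together between E11.5 and E12.5 and cannot be told apart. In bulk tissue, fewer cells of a type and less RNA per cell cannot be told apart either.

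Dlx genes encode homeodomain transcription factors that lie in linked pairs, and the partners of a pair share enhancers and much of their expression. In the branchial arches, Dlx1 and Dlx2 are expressed along the whole arch, Dlx5 and Dlx6 in its ventral part, where they specify the lower jaw under endothelin signalling and lie above Hand2, and Dlx3 and Dlx4 towards the tip. Outside the arches, Dlx1, Dlx2, Dlx5 and Dlx6 mark the GABAergic neurons of the ventral forebrain, and the family is also used in the limb bud, the otic and olfactory placodes, the surface epithelium and bone. The comparisons asked whether Hand2 in all neural crest cells went with a different level of these genes, and how their signal differed between the samples of the 2 stages.

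Promoters are shown because the partners of a pair were higher together in the E12.5 heads. Among the 6 members, the choice was set by which sequences were on hand and not by the size of their differences. RefSeq promoter sequences (GRCm38.p6) were used for 2 of the 6 members, Dlx1 and Dlx2, and for Dlx6os1, the transcript that runs opposite Dlx6. Each run is the 250 bases before the annotated transcription start, written 5′ to 3′ on the strand of the gene, and other transcripts of the same gene may start elsewhere. Capitals mark TAATTA, the core bound by Dlx and many other homeodomain factors, and CANNTG, the E-box core bound by bHLH factors such as Hand2. Both motifs read the same on either strand, so that a search of both strands finds each match once, and no match of one overlapped the other.
Dlx1, chr2:71529195-71529444, plus strand: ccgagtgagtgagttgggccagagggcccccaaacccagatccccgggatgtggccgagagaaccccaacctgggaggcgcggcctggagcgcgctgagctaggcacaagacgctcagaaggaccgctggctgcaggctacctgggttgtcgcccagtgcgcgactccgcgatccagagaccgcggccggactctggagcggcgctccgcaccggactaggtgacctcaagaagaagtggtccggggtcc
Dlx2, chr2:71546755-71547004, minus strand: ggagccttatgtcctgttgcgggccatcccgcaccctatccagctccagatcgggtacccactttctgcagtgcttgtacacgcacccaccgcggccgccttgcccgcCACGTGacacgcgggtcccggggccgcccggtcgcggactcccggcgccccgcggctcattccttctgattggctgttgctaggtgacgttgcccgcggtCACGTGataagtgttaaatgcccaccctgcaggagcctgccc
Dlx6os1, first listed start, chr6:6869534-6869783, minus strand: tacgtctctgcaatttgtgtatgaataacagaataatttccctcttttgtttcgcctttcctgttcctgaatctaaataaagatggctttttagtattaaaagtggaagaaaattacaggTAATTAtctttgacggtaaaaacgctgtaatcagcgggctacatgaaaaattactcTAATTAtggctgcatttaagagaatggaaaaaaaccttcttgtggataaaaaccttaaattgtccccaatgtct
The Dlx1 run held 0 matches to TAATTA and 0 to CANNTG. The Dlx2 run held 2 matches to CANNTG, both of them CACGTG, starting 142 and 42 bases before the start, and 0 matches to TAATTA. The Dlx6os1 run held 2 matches to TAATTA, starting 130 and 74 bases before the start, and 0 to CANNTG. Before the second listed start of Dlx6os1, chr6:6861684-6861933, which is not printed, there was 1 match to TAATTA, 174 bases before the start, and 1 to CANNTG, 14 bases before it. Sequences before 2 other opposite-strand transcripts, Dlx4os and Dlx6os2, were also on hand and are not printed. Each held 0 matches to TAATTA and 1 to CANNTG. Of 32851 promoter sequences of this length, 4.84% held TAATTA and 66.2% held CANNTG. The Dlx1 and Dlx2 runs were 68% and 66.4% G or C, against 33.2% for that of Dlx6os1. A match of letters is not a binding site.

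Signals are MAS5 signals, the summary of a probe set's brightness, scaled so that the trimmed mean of each array was 500. They are comparable for 1 probe set between arrays and not between probe sets. A gene was represented by its brightest probe set, and a comparison was read only where the brighter of its 2 arrays was no lower than the middle signal of its array (medians 97.2, 101, 106 and 102 for the wild-type and Hand2NC bodies and heads in turn). As a gauge of error without replicates, each log2 difference is given with the local spread, which is the robust SD of the same log2 difference over the 500 genes nearest in mean signal. A difference past the local spread is common by its construction, and the share of all genes past it is given beside each count. A gene was called where the difference was at least 2-fold.

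As a check of the genotypes, Hand2 was read with each of its probe sets. The Hand2 probe set 1422221_at read 67.1 and 314 in wild-type and Hand2NC at E11.5, and 33.4 and 706 at E12.5, which are log2 differences of 2.23 and 4.40. The brightest Hand2 probe set, 1436041_at, read 1214, 1244, 592 and 839, with log2 differences of 0.04 and 0.50. The third, 1443854_at, was between 1.59 and 7.82 on all arrays. Of the region markers, all 9 measured liver genes, all 10 heart genes and all 8 posterior Hox genes were above the filter in the E11.5 comparison, and 2, 5 and 0 of them in that of the E12.5 heads. The Y-linked Eif2s3y read 840, 853, 956 and 14.4, so that Y-linked signal was nearly missing from the Hand2NC pool of E12.5 heads and present in the others. The part of this in the genotype differences of E12.5 heads was not tested.

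Dlx1, which with Dlx2 patterns the upper jaw and the ventral forebrain, read 396 in wild-type and 380 in Hand2NC at E11.5, and 1223 and 1160 at E12.5. Both E12.5 arrays were far above both E11.5 arrays, and the genotypes lay side by side at each stage. Dlx2, its partner, read 214 and 227 at E11.5 and 539 and 590.0 at E12.5, in the same order of stages. Dlx5, a ventral arch factor that also acts in bone formation, read 312 and 379 at E11.5 and 599 and 674 at E12.5. Here the Hand2NC array was the brighter at both stages. Dlx6, the partner of Dlx5 in the lower jaw programme, read 90.6 and 75.3 at E11.5, both below their array medians, and 280.0 and 204 at E12.5. The Hand2NC array was thus the dimmer at both stages, the opposite order from Dlx5.

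Dlx3, which acts in epithelium, tooth and bone, and Dlx4 were dim. Dlx3 read 31.4, 43.2, 74.5 and 95.6 in wild-type and Hand2NC at E11.5 and wild-type and Hand2NC at E12.5 with probe set 1422037_at, below the median on all 4 arrays. Its second probe set, 1450475_at, read 47.0, 37.6, 56.6 and 44.1 in the same order. Dlx4 read 15.5, 36.1, 46.7 and 64.3 with probe set 1420595_at and 8.75, 12.8, 19.7 and 3.98 with 1443591_at. The probe sets of these genes did not order the arrays alike. For Dlx3 the genotype difference had opposite signs, at log2 0.46 and −0.32 at E11.5 and 0.36 and −0.36 at E12.5. For Dlx4 it was 1.22 and 0.55 at E11.5 and 0.46 and −2.31 at E12.5. No direction is therefore read from Dlx3 and Dlx4 in any comparison.

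**Figure D1:**
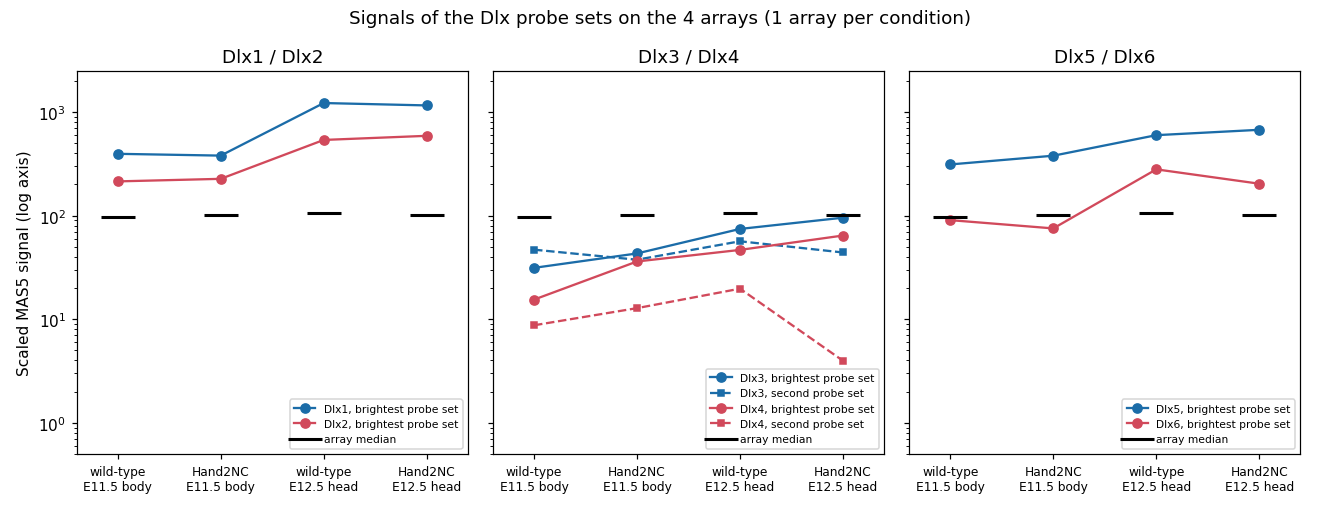
Scaled MAS5 signal (log axis) of each of the 8 Dlx probe sets on the 4 arrays, 1 panel per linked pair, with lines joining the values of 1 probe set and black bars at the array medians. Dlx1, Dlx2, Dlx5 and Dlx6 were higher on both E12.5 arrays than on both E11.5 arrays, and all Dlx3 and Dlx4 probe sets were below the medians.

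Between genotypes, no Dlx gene differed 2-fold above the filter at either stage. At E11.5, 3 of the 6 members were above the filter (Dlx1, Dlx2 and Dlx5) and 0 were called, where 0.446% of 11886 genes were called in either direction. At E12.5, 4 of the 6 were above it, with Dlx6 added, and 0 were called, where 0.398% of 11815 genes were. The median log2 difference over all 6 members was 0.18 at E11.5 and 0.15 at E12.5, beside −0.01 and 0.00 over all genes above the filter. The member medians include the dim Dlx3 and Dlx4, and at E11.5 Dlx6, which were below the filter, so the sets are unlike. The members above the filter ranged from −0.06 to 0.28 at E11.5 and from −0.46 to 0.17 at E12.5.

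Of the single genes, Dlx1 differed by log2 −0.06 (local spread 0.16) at E11.5 and −0.08 (0.15) at E12.5. Dlx2 differed by 0.08 (0.21) and 0.13 (0.23). Both partners of this pair were within the local spread at both stages. Dlx5 was 1.21-fold higher in Hand2NC at E11.5, a log2 difference of 0.28 (0.22), and differed by 0.17 (0.19) at E12.5. It was thus just past the local spread at E11.5 and just within it at E12.5. Dlx6 was 1.38-fold lower in Hand2NC heads at E12.5, a log2 difference of −0.46 (0.32), and at E11.5, where both arrays were below the medians, the difference was −0.27 (0.34). Of the members above the filter, 1 of 3 was past the local spread at E11.5, where 33.6% of all genes were, and 1 of 4 at E12.5, where 33.3% were. These counts are near the background. The Hand2NC difference at E12.5 minus that at E11.5 was −0.02 for Dlx1, 0.05 for Dlx2, −0.11 for Dlx5 and −0.19 for Dlx6, which was not tested.

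**Figure D2:**
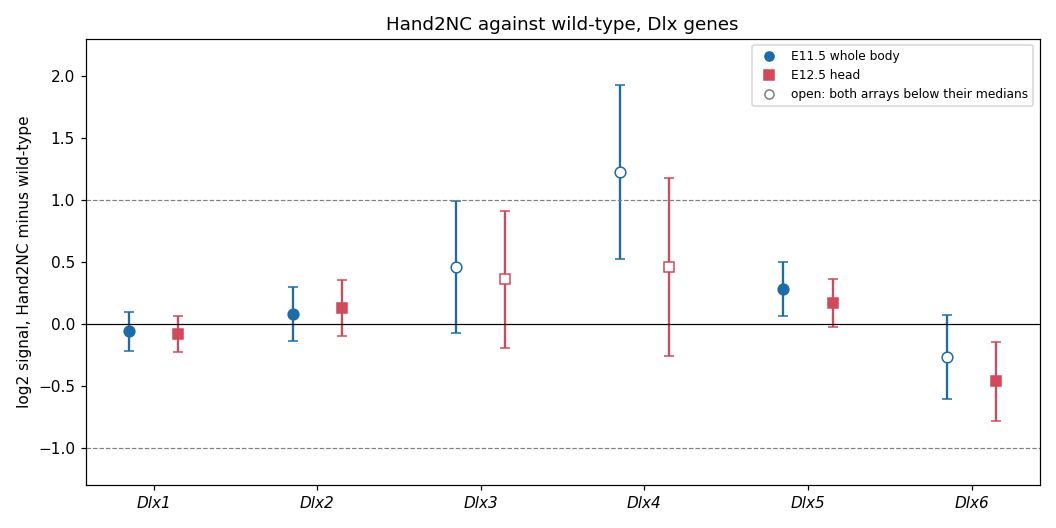
Log2 difference in signal, Hand2NC minus wild-type, for the 6 Dlx genes in E11.5 whole bodies (circles) and E12.5 heads (squares), with bars of 1 local spread and dashed lines at 2-fold. Among filled symbols none reached 2-fold, and Dlx5 lay above 0 at both stages and Dlx6 below 0 at E12.5, while open symbols mark genes below the median on both arrays.

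The 3 linked pairs were then set against each other, each on chromosome 2 (Dlx1 and Dlx2), 11 (Dlx3 and Dlx4) or 6 (Dlx5 and Dlx6), with 0 other protein-coding genes between the partners. The genotype difference of Dlx1 minus that of Dlx2 was log2 −0.14 at E11.5 and −0.21 at E12.5, with combined local spreads of 0.27 at both. The partners of this pair differed from each other by less than that spread. For Dlx5 minus Dlx6 it was 0.55 (0.40) at E11.5 and 0.63 (0.37) at E12.5. This was the only pair past its combined spread, with Dlx5 to the Hand2NC side and Dlx6 to the wild-type side at both stages, in genotype comparisons that share no array. At E11.5 the value rests on Dlx6 signals below the array medians, and with dim values raised to those medians it was 0.22, with Dlx6 itself turned to 0.06. For Dlx3 minus Dlx4 it was −0.76 (0.88) and −0.10 (0.90), between genes below the filter. How often other pairs of genes pass a combined spread was not computed. Of single genes above the filter, 33.6% at E11.5 and 33.3% at E12.5 were past their own local spread.

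Between E11.5 whole body and E12.5 head, every Dlx gene above the filter was higher in the head. Dlx1 was 3.09-fold higher in wild-type and 3.05-fold higher in Hand2NC, log2 differences of 1.63 (local spread 0.33) and 1.61 (0.27). Dlx6 was 3.09-fold and 2.70-fold higher, 1.63 (0.66) and 1.43 (0.55), and passed the filter only through its E12.5 arrays. Dlx2 was 2.51-fold and 2.60-fold higher, 1.33 (0.46) and 1.38 (0.37). Dlx5 differed least, at 1.92-fold and 1.78-fold, 0.94 (0.40) and 0.83 (0.37), and was not called in either genotype. Thus 3 of 6 members were called higher in each genotype, where 4.45% of 12061 genes were in wild-type and 2.87% of 11990 were in Hand2NC. A gene that passes only through its bright array, as Dlx6 did, had to differ, and without it 2 of 6 were called in each genotype. The median over all 6 members, with Dlx3 and Dlx4 below the filter, was 1.46 in wild-type and 1.26 in Hand2NC. Over all genes above the filter it was 0.03 and 0.04. The members above the filter ranged from 0.94 to 1.63 in wild-type and from 0.83 to 1.61 in Hand2NC. The dim Dlx3 differed by 1.25 (0.69) and 1.15 (0.66) and Dlx4 by 1.59 (0.80) and 0.83 (0.74), which falls to 0.12 and 0.01 for both genes with dim values raised to the array medians.

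Within pairs, the differences between stages lay within the combined local spread. Dlx1 minus Dlx2 was 0.30 (0.57) in wild-type and 0.23 (0.46) in Hand2NC. Dlx5 minus Dlx6 was −0.69 (0.77) and −0.60 (0.66), so that Dlx6 had the larger difference of this pair in both genotypes. Dlx3 minus Dlx4 was −0.35 (1.05) and 0.31 (1.00), with no common sign.

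Opposite-strand transcripts of the pairs were higher in the head too. Dlx1as, which overlaps Dlx1, read 212 and 227 at E11.5 and 683 and 689 at E12.5, log2 differences between stages of 1.69 (0.43) in wild-type and 1.60 (0.35) in Hand2NC. Dlx6os1, also known as Evf2, which crosses the Dlx5 and Dlx6 interval, read 236 and 251 at E11.5 and 494 and 426 at E12.5, with differences of 1.07 (0.49) and 0.76 (0.38). Its genotype difference was 0.09 (0.24) at E11.5 and −0.21 (0.24) at E12.5, within the local spread. That of Dlx1as was 0.10 (0.19) and 0.01 (0.20). Whether a probe set reads only 1 strand was not tested, so signal of overlapping transcripts cannot be assigned with certainty. The other such transcripts were below the medians on all arrays, Dlx6os2 at 4.40 to 16.8 and Dlx4os at 1.24 to 42.6.

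The coding genes that flank the pairs did not share the higher head signal. Beside Dlx1 and Dlx2, Metap1d, a mitochondrial methionine aminopeptidase, differed between stages by log2 −0.10 in wild-type and −0.23 in Hand2NC, and Itga6, an integrin subunit, by 0.24 and −0.06. Beside Dlx5 and Dlx6, Sem1, a small proteasome subunit, differed by −0.38 and −0.31, and Sdhaf3, an assembly factor of succinate dehydrogenase, by −0.45 and −0.13. Beside Dlx3 and Dlx4, Itga3 differed by −0.46 and 0.06, and Tac4 was below the medians. The differences of these 5 flanking genes above the filter were smaller in size than those of all 4 Dlx genes above it.

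**Figure D3:**
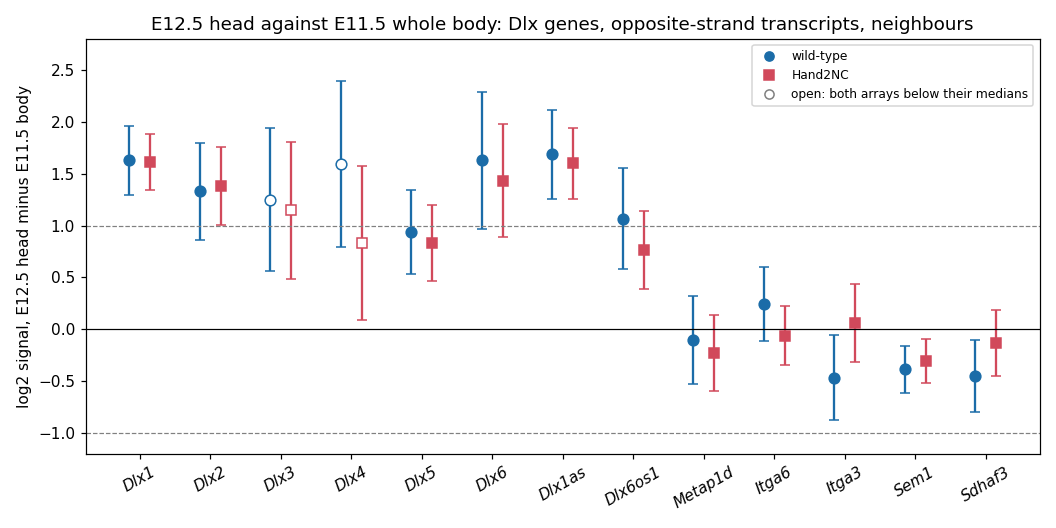
Log2 difference in signal, E12.5 head minus E11.5 whole body, in wild-type (circles) and Hand2NC (squares), with bars of 1 local spread and dashed lines at 2-fold. Drawn are the Dlx genes, the opposite-strand transcripts Dlx1as and Dlx6os1, and the flanking coding genes Metap1d, Itga6, Itga3, Sem1 and Sdhaf3. Dlx4os, Dlx6os2 and Tac4, below the medians on all arrays, are not drawn. The filled Dlx symbols lie between 0.83 and 1.63 and the flanking genes between −0.46 and 0.24.

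The genes most like each called member over the 4 arrays were then found, as the smallest distance between log2 profiles centred on their means, among 12248 genes. With 4 arrays the measure mainly reads the stage difference, and it is given as a description. Nearest to Dlx1 were Rab3c, a small GTPase of secretory vesicles (distance 0.10), Tmem121b (0.11) and Kif21b, a kinesin motor (0.12). Nearest to Dlx2 were Olig1, a basic helix-loop-helix factor of the oligodendrocyte lineage (0.071), Cntnap5a, a neuronal surface protein (0.077), and Gad2, a GABA-synthesising enzyme (0.089). Nearest to Dlx6 were Slc4a10, a bicarbonate transporter of neurons (0.096), Glra2, a glycine receptor subunit (0.12), and Nap1l5 (0.20). Dlx genes were not the nearest to each other. In the order from Dlx1, Dlx2 was 40th and Dlx6 43rd, both at 0.32, and Dlx5 529th at 0.79. From Dlx2, Dlx1 was 128th at 0.32, Dlx5 353rd at 0.49 and Dlx6 396th at 0.52. From Dlx6, Dlx1 was 25th at 0.32, Dlx2 161st at 0.52 and Dlx5 728th at 0.88.

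The other genes of the pathways in which Dlx genes act were taken from lists of known members. Of 18 subpallial GABAergic neuron genes, which include the regulators and products of Dlx-expressing neurons and the transcripts Dlx1as and Dlx6os1, 12 were above the filter. In the E12.5 heads 8 of these were at least 2-fold higher than in E11.5 bodies in wild-type and 5 in Hand2NC, with 0 lower, where 4.45% and 2.87% of all genes were higher, and medians were 1.23 and 0.85. Of the 8 in wild-type, Slc32a1 and Olig2 passed the filter only through the head array. Slc32a1, the vesicular GABA transporter, read 96.6 and 116 at E11.5 and 419 and 414 at E12.5, log2 differences of 2.12 and 1.84. Gad1, the other GABA-synthesising enzyme, read 452 and 540 at E11.5 and 1403 and 1266 at E12.5. Sst, a neuropeptide, differed by 1.09 and 1.49. Between genotypes 0 of the 12 were called at either stage. At E12.5, Lhx6, a factor of migrating interneurons and of the maxillary arch, differed by −0.40 (0.27), Sst by 0.32 (0.19) and Dlx6os1 by −0.21 (0.24).

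The telencephalon markers, which Dlx genes are not among, were also higher in the head. All 5 measured were above the filter, and their stage medians were 1.05 in wild-type and 1.12 in Hand2NC. In each genotype 3 of 5 were called higher, where 4.45% of all genes were in wild-type and 2.87% in Hand2NC. The summed signal of the markers was 2495 and 2444 at E11.5 against 5745 and 5186 at E12.5. Neurod6, a cortical neuron factor, was the furthest, at log2 2.56 in wild-type and 2.31 in Hand2NC. The part of a larger forebrain share in the higher Dlx signal was not tested. At E12.5 the summed telencephalon signal was lower in Hand2NC. Of the 5 markers, Neurod6 at −0.46 (0.19) and Emx1 at −0.31 (0.26) were lower in Hand2NC past the local spread, while Emx2 at −0.14, Lhx2 at −0.04 and Tbr1 at 0.07 were within it. The largest part of the lower sum was Neurod6, which read 1297 in wild-type and 944 in Hand2NC. The part of these in the Dlx6 difference was not tested.

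Of 19 genes of the endothelin pathway around Dlx5 and Dlx6, from the ligand Edn1 to ventral factors, 17 had a named probe set and 15 were above the filter. The receptor gene Ednra was not analysed here. The median stage difference was 0.01 in wild-type and 0.06 in Hand2NC. By its brightest probe set, Hand2 was the only gene called between stages, at log2 −1.04 (0.33) in wild-type and, not called, −0.57 (0.31) in Hand2NC. Its probe set 1422221_at differed by −1.01 in wild-type, below both medians, and by 1.17 in Hand2NC, the opposite direction. Gbx2 and Barx1 differed by 0.80 and 0.77 in wild-type. Between genotypes, with Hand2 read by its brightest probe set 1436041_at, 0 of 15 were called in E11.5 bodies and 1 in E12.5 heads. With probe set 1422221_at, Hand2 itself differed by 2.23 and 4.40, and counting probe sets gave 1 and 2 calls higher in Hand2NC over all lists. The gene called in the heads was the ventral homeobox gene Gsc, which read 156 in wild-type and 320 in Hand2NC, at 1.03 (0.25). It had read 169 and 218 at E11.5, at 0.37 (0.26). Pitx1, a mandibular homeobox gene, read 323 and 581 at E12.5, at 0.85 (0.20). Both differed more than any Dlx gene above the filter, in the direction of Dlx5 and against that of Dlx6. The list as a whole had no common direction between genotypes. Past the local spread, 5 of its genes were higher and 4 lower in Hand2NC at E12.5, with a median of −0.07. At E11.5, 4 were higher and 3 lower, with a median of 0.04.

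Of 9 dorsal or maxillary arch genes, 8 were above the filter and 0 were called between genotypes. At E12.5, 7 of 8 were lower in Hand2NC by more than the local spread and 0 higher, with a median of −0.23, beside 33.3% of all genes past the local spread in either direction. Irx5 differed by −0.47 (0.13), Lhx6 by −0.40 (0.27) and Foxl2 by −0.30 (0.24). At E11.5, 3 were higher and 2 lower by more than it, with a median of 0.08. Dlx1 and Dlx2, which act in this arch, were within their local spreads at both stages. Between stages the dorsal list had medians of 0.82 in wild-type and 0.63 in Hand2NC. In wild-type 4 of 8 genes were called higher (Lhx6 at 1.60, Lhx8 at 1.31, Pou3f3 and Nr2f1 at 1.02), where 4.45% of all genes were. In Hand2NC Lhx8 alone was, at 1.28, where 2.87% of all genes were.

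**Figure D4:**
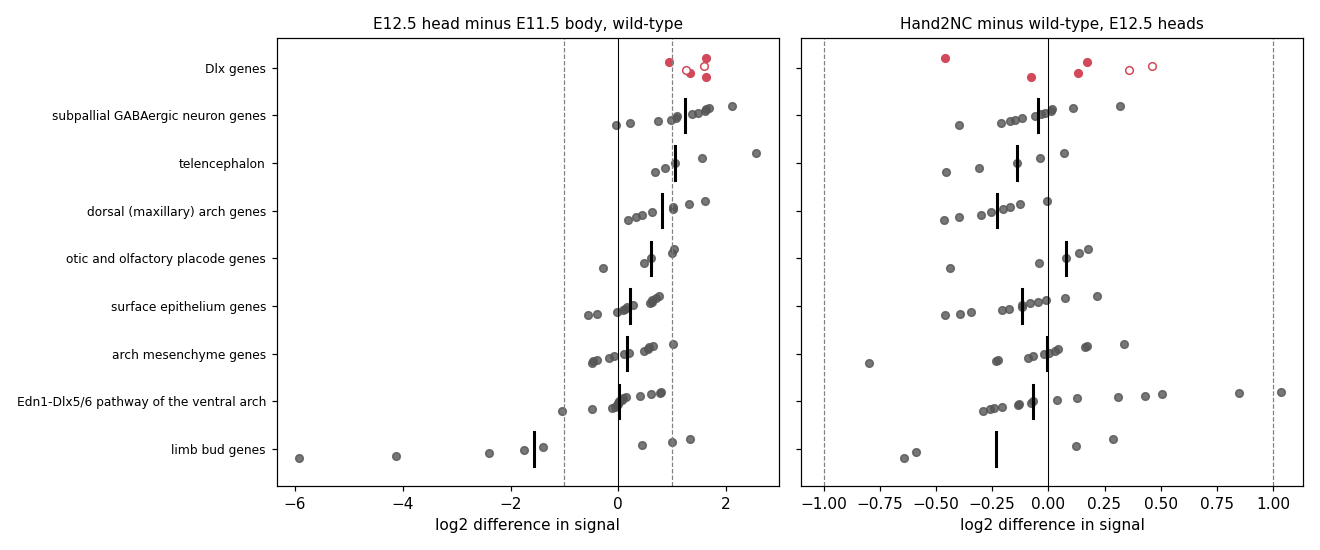
Log2 differences of the Dlx genes (red, all 6, open where both arrays were below their medians) and of the genes of the pathway and tissue lists above the filter (grey, black bar at the median), left for E12.5 head minus E11.5 whole body in wild-type and right for Hand2NC minus wild-type in E12.5 heads, with dashed lines at 2-fold. In the left panel the list nearest to the Dlx genes by median is that of GABAergic neuron genes at 1.23, with telencephalon next at 1.05. In Hand2NC, which is not drawn, telencephalon was nearest at 1.12, and the GABAergic list was at 0.85. The GABAergic list includes Dlx1as and Dlx6os1. In the right panel Gsc, of the endothelin list, is the only point past 2-fold. Hand2 is drawn there by its brightest probe set (0.50) and not by 1422221_at (4.40).

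The remaining tissues in which Dlx genes act gave the following. Of 12 surface epithelium genes, all above the filter, 0 were called in any comparison, with medians between stages of 0.22 and 0.17. Of the 12 arch mesenchyme genes, 0 were called between genotypes, Tfap2b was called higher in the wild-type head at 1.02, and the stage medians were 0.15 and 0.18. Of 10 placode genes 5 were above the filter, with stage medians of 0.61 and 0.98. Gata3 was called higher in the wild-type head at 1.04, and in Hand2NC Oc90, a protein of the otoconia, at 1.28 and Otx1 at 1.06. Of 8 osteoblast genes 2 or 3 were above the filter, and 0 were called in any comparison.

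Of 12 limb bud genes 8 were above the filter in wild-type, of which 5 were called lower in the head, where 2.61% of all genes were, and 1 higher, and in Hand2NC 4 of 7 were lower, where 2.24% were. All genes called lower passed the filter only through the E11.5 array where they were bright and so had to differ, and with both arrays above their medians the list medians were 0.88 and 0.64. Hoxd13, a factor of the distal limb and genital tubercle, read 1092 and 1027 at E11.5 and 18.1 and 13.7 at E12.5.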

How the data were processed

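The authors pooled RNA and hybridised 1 array per condition. The deposited table gave 1 linear-scale intensity per probe set and array, a MAS5 signal by the submitters' processing notes, in which no version is stated. It held 45101 probe sets on 4 arrays, and the 64 controls were left out. Deposited intensities had a 2% trimmed mean of 498 on each array and were rescaled to 500 before log2. Names came from the annotation of the platform. Probe sets with several symbols (932) or none (9160) were not used. The gene identifier was found for 34741 probe sets among RefSeq genes of GRCm38.p6, from which names and neighbours alone were taken, and 0 symbols changed.

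Each gene was its brightest probe set by mean log2 signal. A comparison was read where the brighter array reached its median, and called at 2-fold. The number of arrays, 1 per condition, limits the precision. The 6 members, the lists and the rules were chosen with earlier results of these data known. Of 140 list genes, 127 had a named probe set, and the others were not analysed here. The rule named all 6 members and Hand2, list genes called between genotypes, the 3 genes of a list furthest from 0 in a comparison, and the 3 profiles nearest to each called member. Flanking genes were named by position, and Eif2s3y after its values were seen. For each comparison 12 alternatives of scaling, filter, probe set and pseudocount were computed. The code was tested on simulated data, with numpy 2.4.6, scipy 1.17.1, pandas 2.3.3, matplotlib 3.10.9 and statsmodels 0.14.6 under Python 3.11.15.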

Additional observations from a re-analysis of the deposited data

Results flagged for a closer look

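The search covered genes above the filter at both stages, so that Dlx3, Dlx4 and Dlx6 could not be flagged. Of Dlx1, Dlx2 and Dlx5, none had Hand2NC differences past the local spread in opposite directions at E11.5 and E12.5. Of the list genes, 4 did, and the difference between the stages was not tested, because each stage has 1 array per genotype. Lhx6, which is expressed in Dlx-positive interneurons and in the maxillary arch, had a log2 difference of 0.39 at E11.5 and −0.40 at E12.5, a change of −0.78. For Tfap2c, a factor of the surface ectoderm, the values were 0.30 and −0.34, a change of −0.64. For Nr2f2, a maxillary arch factor, they were 0.24 and −0.17, a change of −0.41. For Krt8, a keratin of simple epithelium, they were −0.30 and 0.22, a change of 0.52. The remaining list genes were not searched, and some of them met the same rule. Among these were Nr2f1 at 0.21 and −0.20, Gad1 at 0.26 and −0.15, Ebf1 at 0.21 and −0.17, and Foxc2 at −0.18 and 0.16.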

How the results depend on the processing

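No paired analysis was possible because there was 1 array per condition. Over the 12 alternatives, 339 of 348 recomputed differences of the Dlx genes and their opposite-strand transcripts moved by less than the local spread, as did 127 of 128 pair differences and 371 of 383 list medians. The filter alternatives change which genes are called and cannot move a gene or pair difference. Averaging probe sets cannot move a gene that has only 1. Part of the gene and pair counts was therefore fixed in advance. The stage difference ranged from 1.51 to 1.63 in wild-type for Dlx1, from 1.15 to 1.33 for Dlx2, from 0.82 to 0.94 for Dlx5 and from 1.23 to 1.63 for Dlx6. The genotype difference at E12.5 ranged from −0.46 to −0.38 for Dlx6 and from 0.16 to 0.23 for Dlx5, and at E11.5 from 0.22 to 0.28 for Dlx5, whose only probe set was lost where those ending in _a_at were left out. For Dlx6 at E11.5 it turned to 0.06 where dim signals were raised to their array's median. Centring arrays on their medians moved the median of all genes in the wild-type stage comparison from 0.03 to −0.10. The cause of the following moves was not tested.

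Without a filter, 5 members were at least 2-fold different between stages in wild-type and 1 between genotypes at E11.5. With the mean over probe sets, the Hand2NC difference of Dlx4 at E12.5 minus that at E11.5 was −1.81, and Dlx3 minus Dlx4 at E12.5 was 0.93. List genes at least 2-fold higher in the head numbered 14 in wild-type (8 with median centring, 7 with the filter at the 75th percentile) and 8 in Hand2NC (5 with that filter). Those lower numbered 6 in wild-type (1 with both arrays above the median, 2 at the 75th percentile, 3 with dim values raised and with the mean over probe sets, 10 without a filter) and 4 in Hand2NC (0, 1 and 8 with both arrays above the median, at the 75th percentile and without a filter). At E11.5, 0 list genes were called higher in Hand2NC (1 without a filter and 1 counting probe sets) and 0 lower (1 with the mean over probe sets and 1 without a filter). At E12.5, 1 was higher (0 at the 75th percentile and with a pseudocount of 50, 2 with the mean and 2 counting probe sets, 4 without a filter) and 0 lower (1 with the mean, 2 counting probe sets, 5 without a filter).

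In Hand2NC the median stage difference was 0.44 for the endothelin list without probe sets ending in _x_at, _s_at or _a_at, 0.24 for the dorsal arch list with the mean over probe sets, and 0.42 for the placode list both at the 75th percentile and counting probe sets. The placode list was at −0.38 between genotypes at E11.5 with the mean over probe sets. The limb list had stage medians of 0.88 in wild-type and 0.64 in Hand2NC with both arrays above the median, −5.92 and −6.22 at the 75th percentile, −0.69 and −1.03 with dim values raised, and in Hand2NC −2.69 with the mean. Genes called of all genes ranged from 2 to 887 higher and 1 to 1285 lower between genotypes at E11.5, 2 to 1194 and 5 to 1105 at E12.5, 231 to 1526 and 89 to 1704 between stages in wild-type, and 145 to 1549 and 75 to 1408 in Hand2NC, the largest counts being without a filter.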

Other observations

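Beside the Dlx genes, blood, liver and heart markers differed between the samples. The median stage difference of the erythroid markers was −1.42 in wild-type and −1.41 in Hand2NC, with Klf1, an erythroid transcription factor, at −3.40 and −2.84. Liver markers were at −5.43 and −5.18 and heart markers at −3.86 and −3.41. Of the 9 liver and 10 heart genes, 2 and 5 were above the filter in the E12.5 heads. The others passed only through the E11.5 array where they were bright, and so had to differ. Past the local spread, 8 liver genes were lower in the head and 1, Ttr, was higher, at 0.94 and 0.85. At E12.5, Alas2, which makes heme in red cells, differed between genotypes by −0.67 (local spread 0.17) and Klf1 by 0.41 (0.21). The 3′ to 5′ signal ratio of Actb was 1.36 to 1.48 and that of Gapdh 0.804 to 0.890 over the 4 arrays.

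Within the GABAergic list, Olig2, a factor of ventral progenitors, differed between genotypes by 0.62 (0.37) at E11.5, from 66.3 to 102, and was 184 and 170 at E12.5. Among the arch mesenchyme genes, Foxf1 differed by 0.51 (0.20) at E11.5, and Twist1 by 0.34 (0.10) and the palate factor Osr2 by −0.80 (0.41) at E12.5. Krt14 and Krt5, keratins of basal epithelium, differed by −0.46 (0.19) and −0.39 (0.14) at E12.5. Among the limb genes, Sp6 differed by −0.75 (0.44) and Tbx5 by 0.71 (0.43) at E11.5. Olig2 and Sp6 at E11.5 and Osr2 at E12.5 passed the filter only through the brighter array, and so had to differ.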
